A study of Mus musculus with 12 samples.

Results

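The comparison set sciatic nerves of niacin-treated *Mtmr2* KO mice against those of untreated *Mtmr2* KO mice, with 4 libraries in each group, 8 of the 12 libraries of the series, and covered all genes of the count table, of which 17257 passed the filter on low counts. Both groups are labelled *Mtmr2* -/- and were 1 month old, and each library came from 1 nerve of 1 mouse. By the counts of *Xist* and *Ddx3y*, each group held 3 males and 1 female. Treated mice received 120 mg/kg of niacin as intraperitoneal injections from postnatal day 10 and Niacin-SR, a slow-release form, by gavage from day 21 to day 30. The labels give no treatment for the untreated group, whereas the study calls it vehicle treated in this comparison. A group of 4 WT control nerves shares the model that estimated the spread and is given beside the results, but niacin-treated WT nerves were not analysed here, so what is described holds for mice labelled as lacking *Mtmr2*. Values of single libraries follow the order 4501, 4502, 4503 and 4504 for the untreated group and 4505, 4506, 4507 and 4508 for the treated group, in CPM, counts scaled to the size of each library with TMM factors.

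Niacin, or nicotinic acid, is the form of vitamin B3 from which cells make NAD by the Preiss-Handler route, and at drug doses it binds the receptor Hcar2 on fat and immune cells, where it restrains the release of fatty acids and triggers prostaglandin synthesis. In nerve it has also been proposed to act through TACE, the protease encoded by *Adam17*, which cuts the axonal growth factor neuregulin 1, the signal that tells Schwann cells how much myelin to make. Loss of MTMR2, a phosphatase of membrane phosphoinositides, causes the demyelinating neuropathy CMT4B1, in which myelin sheaths fold outwards. The question put to these nerves was whether the treatment had reached the tissue and changed its gene expression.

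Counts per library ranged from 20763951 to 33191106, and some libraries stood apart. *Mtmr2*, the disrupted gene, was counted at 71.6, 84.7, 143 and 69.5 CPM in the untreated group and at 66.8, 68.5, 68.3 and 73.5 CPM in the treated group, against 128 to 161 CPM in WT control. The library labelled KO 4503 was thus at the WT control level, which goes against its label, whereas the other 7 were below it, and counts over the whole gene do not show which exons were read. That library also had the highest sum of 22 glucocorticoid-induced genes (11770 CPM, against 3116 to 5471 in the other untreated and 2188 to 3099 in the treated libraries). KO 4502 had the highest sum of 92 cytosolic ribosomal protein genes (63854 CPM, against 18471 to 32890 in the other 7). In niacin 4506 and 4507 the sum of 20 skeletal muscle genes was 4550 and 4542 CPM, against 90.2 to 200 CPM in the other 6. The markers of myelinating Schwann cells, the main cells of this nerve, were abundant in all 12 libraries (64607 to 125024 CPM for 10 genes).

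Niacin-treated nerves differed from untreated ones in 246 genes, 1.43% of those tested, at an adjusted p under 0.05 (edgeR quasi-likelihood test with Benjamini-Hochberg adjustment). Of these, 120 were higher (0.695% of tested genes) and 126 lower (0.73%), and 239 of them code for proteins. The median log2 fold change was 1.50 among the higher and −1.09 among the lower genes, with 90 and 71 of them changed more than 2-fold, and −0.04 over all tested genes. The 4 treated libraries lay on one side of the 4 untreated ones for 102 of the higher and 112 of the lower genes, where the shares of all tested genes were 3.6% and 3.4%, or 7.01% in either direction. Many genes named below were chosen from those without overlap, so for them the lack of overlap is not a separate result. The largest fold changes among genes that rose belonged to muscle genes such as *Ckm*, the metallothioneins *Mt1* and *Mt3* were among the 5 most abundant genes that fell, and the transporter gene *Slc38a4* had the smallest p. The untreated libraries were more variable than the treated (median SD of a gene on the log2 scale 0.40 and 0.22).

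**Figure D1:**
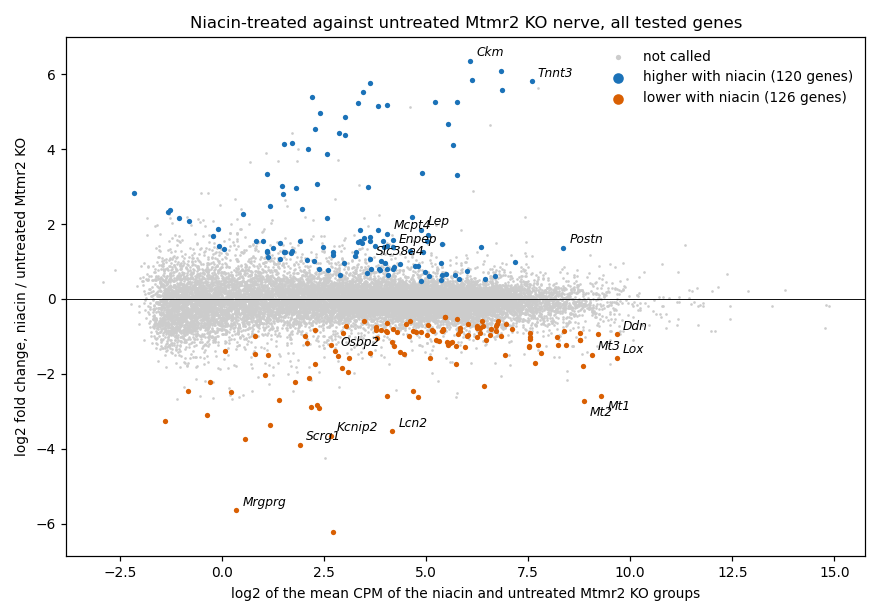
Each point is 1 of the 17257 tested genes, with the log2 of its mean CPM on the x axis and the log2 fold change of niacin-treated against untreated *Mtmr2* KO nerve on the y axis. Blue points are the 120 genes higher and orange points the 126 genes lower at an adjusted p under 0.05, and the group of blue points above 4 includes the skeletal muscle genes.

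These calls lay close to the threshold, with a smallest adjusted p of 0.0254, and they depended on which libraries and tool were used. Without the library labelled KO 4503, 6 genes were called higher and 7 lower (0.0344% and 0.0402% of those tested, 0.0746% in all), all of them among the 246, and without 4506, without 4507 or without both no gene was called (3377, 2458 and 2192 genes at an unadjusted p under 0.05). Leaving out 1 of the 4 WT control libraries, which enter through the shared fit, left no call in 3 cases and 1 gene in each direction in the other. Without KO 4501, niacin 4505 or niacin 4508 the numbers higher and lower were 29 and 19, 119 and 20, and 65 and 12. They were 214 and 298 without KO 4504 and 1745 and 2435 without KO 4502. KO 4502 and niacin 4506 were the females of their groups (*Xist* at 687 and 585 CPM, and at most 5.99 CPM in the other libraries compared). Leaving out either of them thus also changed the balance of the sexes. With only the 8 libraries compared, edgeR called no gene (2249 at an unadjusted p under 0.05), whereas DESeq2 called 245 higher and 199 lower (1.38% and 1.12%, 2.5% in all). With 12 libraries DESeq2 called 6.01% and the tool limma-voom 11.6% of tested genes, against 1.43% with edgeR. On simulated data, DESeq2 made 35 false calls among unchanged genes, and edgeR and limma-voom 5 each.

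**Figure D2:**
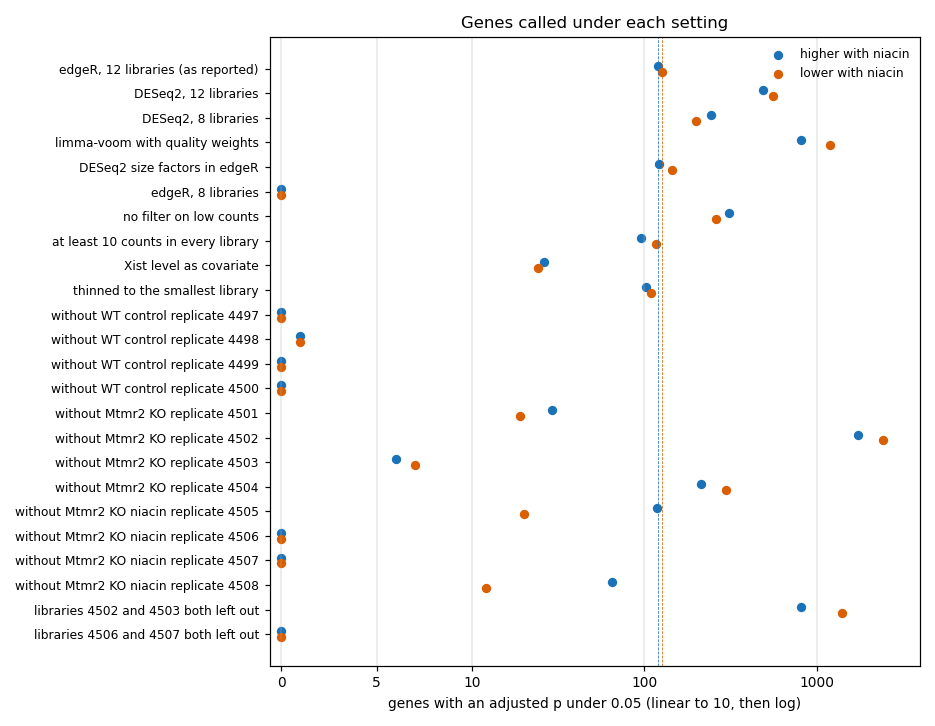
The x axis gives the number of genes called higher (blue) or lower (orange) with niacin under each setting on the y axis, on a scale that is linear to 10 and logarithmic above. Dashed lines mark the 120 and 126 genes of the fit as reported, and the counts run from 0 in several fits to 1745 and 2435 without KO 4502.

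The 13 genes that were also called without the library labelled KO 4503 included 4 that rose and code for transporters or a membrane peptidase. *Slc38a4*, an amino acid transporter of the system A family on chromosome 15 (96994820 to 97055956, GRCm38), was counted at 7.80, 8.25, 7.24 and 8.47 CPM in untreated and 19.2, 15.5, 17.8 and 13.9 CPM in treated nerves. Every treated library was above every untreated one and above WT control (10.5 to 11.7 CPM). It rose by 1.06 on the log2 scale (SE 0.13, adjusted p = 0.0254), and 1.02 without 4503 (adjusted p = 0.0477). The neighbours *Slc6a12* and *Slc6a13* on chromosome 6, 5.34 kb apart, encode carriers of betaine and GABA. *Slc6a12* was at 8.36, 6.10, 3.20 and 7.22 CPM in untreated and 19.9, 15.1, 22.1 and 16.4 CPM in treated nerves (log2 fold change 1.56, SE 0.26, adjusted p = 0.0383). *Slc6a13* was at 17.8, 13.7, 7.82 and 17.3 CPM in untreated and 36.1, 35.5, 37.9 and 28.3 CPM in treated nerves (log2 fold change 1.29, SE 0.22, adjusted p = 0.0383). In both genes the groups did not overlap. *Enpep*, the aminopeptidase A that trims angiotensin peptides, was at 10.6, 13.1, 6.54 and 10.3 CPM in untreated and 23.2, 24.2, 21.6 and 36.1 CPM in treated nerves, with WT control at 17.7 to 24.9 CPM. It rose by 1.38 on the log2 scale (SE 0.22, adjusted p = 0.0383), with no overlap between the groups. Without 4503 the log2 fold changes of *Slc6a12*, *Slc6a13* and *Enpep* were 1.34, 1.08 and 1.21. All were still called, just under the threshold (edgeR adjusted p = 0.0486, 0.0484 and 0.0486).

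Among 26 amino acid transporter genes tested, *Slc38a4* was the 1 that rose and *Slc7a2* the 1 that fell, with a list median of −0.17, or −0.07 without the library labelled KO 4503. *Slc7a2*, which carries cationic amino acids, was at 648, 434, 1387 and 383 CPM in untreated and 179, 298, 151 and 198 CPM in treated nerves (log2 fold change −1.79, SE 0.37, adjusted p = 0.0425). Its highest level was in the library labelled KO 4503, without which the log2 fold change was −1.24 and the call was lost.

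Most other genes called without 4503 fell. In that fit *Osbp2*, *Nmnat2*, *Bok* and *Mrgprg* were also just under the threshold (edgeR adjusted p = 0.0484 to 0.0486). *Osbp2*, an oxysterol-binding protein of lipid exchange between membranes, on chromosome 11, was at 11.7, 7.31, 11.4 and 8.85 CPM in untreated and 3.97, 3.94, 3.52 and 3.60 CPM in treated nerves. All treated libraries were below all others, WT control included (5.26 to 7.94 CPM), and the log2 fold change was −1.39 (SE 0.19, adjusted p = 0.0383). *Osbp2* and *Slc38a4* were each called in 16 of the 23 alternative settings, the most of the genes named here. *Nmnat2*, the axonal enzyme that completes NAD synthesis, was at 19.3, 14.8, 26.3 and 14.9 CPM in untreated and 9.36, 9.88, 8.77 and 8.36 CPM in treated nerves, with WT control at 13.6 to 14.9 CPM. Its groups did not overlap, and it fell by 1.05 on the log2 scale (SE 0.17, adjusted p = 0.0383). Counts from whole nerve do not show which cells its transcripts came from. *Bok*, a pro-apoptotic member of the Bcl-2 family, was at 102, 115, 303 and 53.5 CPM in untreated and 25.6, 38.5, 24.4 and 25.3 CPM in treated nerves (log2 fold change −2.33, SE 0.40, adjusted p = 0.0385). *Mrgprg*, an orphan receptor gene, was at 0.453, 2.69, 5.51 and 1.30 CPM in untreated nerves and from 0 to 0.0858 CPM in treated nerves, so few reads stand behind its log2 fold change of −5.65 (SE 0.89, adjusted p = 0.0383). The remaining genes of the 13, named after their values were seen, were *Gdf10* and *Esr1*, which rose by 1.54 and 1.62 on the log2 scale, *B4galnt1* and *Galnt16*, which fell by 2.47 and 1.70, and the metallothionein *Mt3*. *Gdf10* encodes a growth factor of the bone morphogenetic protein family, *Esr1* the oestrogen receptor alpha, and *B4galnt1* an enzyme of complex ganglioside synthesis.

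Metallothioneins, small cysteine-rich proteins that bind zinc and copper and whose genes are induced by metals and glucocorticoids, fell, and *Mt1* and *Mt3* were among the 5 most abundant genes that did. *Mt1* was at 675, 1891, 1385 and 345 CPM in untreated and 163, 203, 120 and 221 CPM in treated nerves (log2 fold change −2.60, SE 0.42, adjusted p = 0.0383). *Mt2* was at 452, 744, 1788 and 248 CPM in untreated and 96.1, 166, 55.8 and 168 CPM in treated nerves (log2 fold change −2.73, SE 0.53, adjusted p = 0.0401). *Mt3*, the member known from brain, was at 543, 992, 1082 and 525 CPM in untreated and 289, 327, 270 and 232 CPM in treated nerves (log2 fold change −1.49, SE 0.23, adjusted p = 0.0383). In all of them the groups did not overlap, KO 4502 and the library labelled KO 4503 were highest, and the treated libraries were near or below WT control, which had 209 to 330 CPM of *Mt1*, 127 to 236 of *Mt2* and 335 to 380 of *Mt3*. The other 7 tested genes of the list of metallothioneins and zinc transport did not pass the test, and the list median was −0.42, or −0.23 without 4503. Over all tested genes 0.73% fell. Without 4503 the log2 fold changes of *Mt1*, *Mt2* and *Mt3* were −2.45, −1.98 and −1.30, and of these *Mt3* stayed called (edgeR adjusted p = 0.0486).

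*Mt1*, *Mt2* and *Mt3* stand together on chromosome 8, with 24.9 kb between *Mt3* and *Mt1*. Their promoters are shown because these neighbours moved together. The sequences are RefSeq's for GRCm38.p6, plus strand, and end at the base before the annotated start. They were searched, in a window of 250 bases before and 50 bases after the start, for the core of the metal response element to which the zinc sensor MTF1 binds, TGCACNC or TGCGCNC, on both strands, and matches before the start are in capitals. At least 1 match was present in 25.7% and at least 3 in 1.97% of all 32851 promoter windows.
*Mt1* (chr8:94178839-94179088): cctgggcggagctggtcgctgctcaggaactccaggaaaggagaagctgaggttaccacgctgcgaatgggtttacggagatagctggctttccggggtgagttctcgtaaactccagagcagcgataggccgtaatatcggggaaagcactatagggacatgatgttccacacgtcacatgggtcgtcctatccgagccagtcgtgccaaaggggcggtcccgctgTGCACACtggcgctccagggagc
*Mt2* (chr8:94172368-94172617): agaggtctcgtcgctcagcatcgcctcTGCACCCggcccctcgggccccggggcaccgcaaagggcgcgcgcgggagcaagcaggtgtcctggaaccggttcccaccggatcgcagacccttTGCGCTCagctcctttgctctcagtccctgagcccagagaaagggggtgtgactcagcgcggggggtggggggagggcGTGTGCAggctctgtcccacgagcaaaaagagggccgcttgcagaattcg
*Mt3* (chr8:94152357-94152606): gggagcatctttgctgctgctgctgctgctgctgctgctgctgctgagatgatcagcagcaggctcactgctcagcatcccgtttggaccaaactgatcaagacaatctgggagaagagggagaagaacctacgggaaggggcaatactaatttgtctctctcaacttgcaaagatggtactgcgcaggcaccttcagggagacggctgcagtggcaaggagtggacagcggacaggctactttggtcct
The window of *Mt1* held 3 matches, 1 of them before the start, that of *Mt2* held 4, with 3 before the start, and that of *Mt3* held 1, after the start. The gene positions used elsewhere here start at 94179082 for *Mt1* and 94172664 for *Mt2*. The window and the split at the start can therefore differ with the annotation. A match is a run of letters and was not measured as a bound site.

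**Figure D3:**
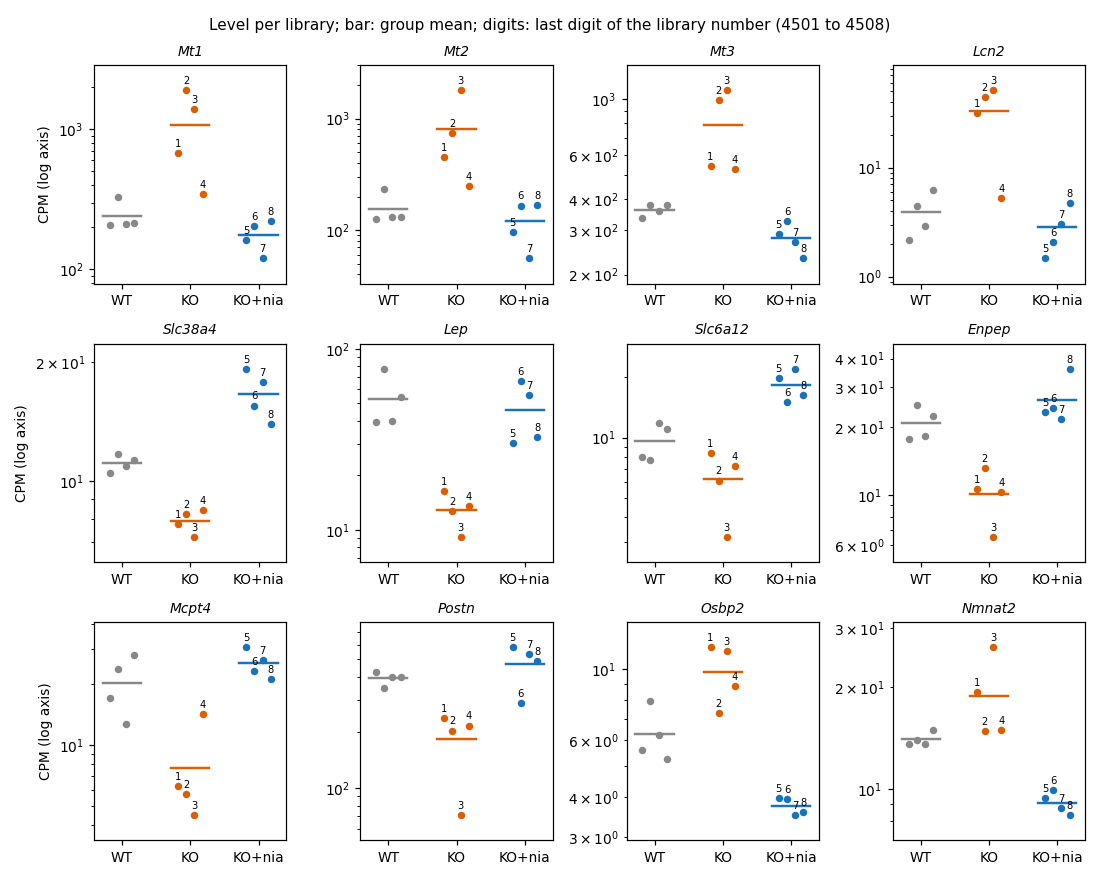
CPM per library on log axes for 12 genes in WT control (grey), untreated *Mtmr2* KO (orange) and niacin-treated *Mtmr2* KO nerve (blue), with bars at the group means and the last digit of the library number beside each point. Treated and untreated libraries do not overlap in any of the 12 genes, most of which were chosen from called genes without overlap. The untreated library 4503 is often the most extreme.

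Genes that glucocorticoids induce had a median log2 fold change of −1.27 over 22 tested members. Of these, *Mt1*, *Lcn2* and *Mt2* fell, where 0.73% of all tested genes did, and 14 were lower and 1 higher at an unadjusted p under 0.05. At that threshold 2089 of all 17257 tested genes were lower and 1383 higher. *Mt1* and *Mt2* are also members of the metallothionein list above. *Lcn2*, which encodes the iron-scavenging protein lipocalin 2, was at 31.8, 44.2, 51.0 and 5.29 CPM in untreated and 1.47, 2.08, 3.02 and 4.76 CPM in treated nerves, with WT control at 2.15 to 6.25 CPM. The groups did not overlap, though KO 4504 was close to niacin 4508, and the log2 fold change was −3.54 (SE 0.59, adjusted p = 0.0383). *Fkbp5*, a co-chaperone of the glucocorticoid receptor named after its values were seen, was at 122, 71.1, 379 and 56.4 CPM in untreated and 46.2, 54.6, 34.2 and 58.8 CPM in treated nerves, and did not pass in edgeR (adjusted p = 0.0912, DESeq2 with 12 libraries 0.0429). Without the library labelled KO 4503, which had the highest sum of this list, the list median was −0.29.

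FoxO factors and their targets, which slow growth and break down protein when insulin and Akt signalling is low, had a median of −0.53 over 20 tested genes, with 3 that fell and none that rose. Over all tested genes, 0.73% fell and 0.695% rose. *Ccng2*, an atypical cyclin of arrested cells, was at 108, 94.3, 111 and 90.3 CPM in untreated and 62.5, 66.3, 58.1 and 46.7 CPM in treated nerves (log2 fold change −0.79, SE 0.12, adjusted p = 0.0383). *Cdkn1b*, the cell cycle inhibitor p27, was at 687, 427, 789 and 469 CPM in untreated and 271, 329, 259 and 259 CPM in treated nerves (log2 fold change −1.09, SE 0.19, adjusted p = 0.0388). *Fbxo32*, the ubiquitin ligase atrogin-1, was at 40.8, 52.6, 56.3 and 35.0 CPM in untreated and 25.5, 27.8, 27.4 and 20.5 CPM in treated nerves (log2 fold change −0.87, SE 0.16, adjusted p = 0.0401). None of the 3 overlapped between groups, and all untreated libraries were above WT control in *Ccng2* (73.6 to 76.8 CPM) and *Cdkn1b* (333 to 386 CPM) but not in *Fbxo32* (31.7 to 39.1 CPM). Without 4503 they were at −0.74, −0.92 and −0.76 on the log2 scale and no longer called, and the list median was −0.30.

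Some immediate early and stress genes fell. Of 27 immediate early genes, *Junb*, *Nr4a2* and *Socs3* were lower, by 1.43, 0.97 and 0.80 on the log2 scale (adjusted p = 0.0401, 0.0460 and 0.0486), and the list median was −0.42, or −0.20 without 4503. The share that fell was 0.73% over all tested genes. *Junb*, a subunit of the AP-1 factor, was at 25.9, 18.2, 51.4 and 24 CPM in untreated and 7.64, 13.8, 10.1 and 13 CPM in treated nerves, without overlap. *Ppp1r15a*, which restores translation after stress, was the 1 of 27 genes of the integrated stress and unfolded protein response that fell, from 83.1, 50.6, 82.6 and 75.1 CPM to 41.4, 45.5, 35.5 and 29.3 CPM (log2 fold change −0.94, SE 0.17, adjusted p = 0.0401). No gene passed the test among the lists of heat shock chaperones, NRF2 antioxidant genes, hypoxia-induced genes and the circadian clock, whose medians were −0.08, 0.02, −0.31 and 0.07. These were −0.14, −0.02, −0.09 and 0.12 without 4503, and 0.09, 0.06, −0.38 and −0.02 without KO 4502.

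In the neuregulin system, which couples axons to Schwann cell growth, 3 of 18 tested genes fell and none rose, where 0.73% of all tested genes fell. *Erbb2*, the signalling subunit of the neuregulin receptor, was at 146, 73.7, 162 and 98.6 CPM in untreated and 52.9, 70.8, 53.3 and 47.7 CPM in treated nerves (log2 fold change −1.10, SE 0.22, adjusted p = 0.0401). *Rhbdf2*, the iRhom2 protein that carries TACE to the cell surface, was at 57.5, 33.0, 70.2 and 44.4 CPM in untreated and 19.6, 30.1, 22.3 and 24.2 CPM in treated nerves (log2 fold change −1.09, SE 0.20, adjusted p = 0.0401). *Lgi4*, a secreted Schwann cell protein needed for timely myelination, was at 128, 111, 158 and 121 CPM in untreated and 83.6, 95.1, 70.4 and 66.4 CPM in treated nerves (log2 fold change −0.72, SE 0.16, adjusted p = 0.0457). The groups did not overlap in these genes, though *Erbb2* in KO 4502 was close to niacin 4506, and none was called without 4503 (−0.92, −0.90 and −0.61).

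The genes on the proposed route of niacin did not pass the test. *Adam17* itself was at 77.1, 80.0, 62.4 and 97.7 CPM in untreated and 120, 107, 101 and 94.0 CPM in treated nerves (log2 fold change 0.41, SE 0.14, adjusted p = 0.137, exact two-sided permutation p = 0.0571). Treated libraries were mostly above untreated ones, with KO 4504 above niacin 4508. *Bace1*, the protease that activates neuregulin 1 type III, was at 89.8, 58.8, 118 and 73.0 CPM in untreated and 60.0, 68.8, 55.6 and 45.9 CPM in treated nerves (log2 fold change −0.56, SE 0.19, adjusted p = 0.135, exact permutation p = 0.0857), and passed only with limma-voom among the other tools (adjusted p = 0.0434). *Nrg1* was at 0.941, 3.50, 0.705 and 1.01 CPM in untreated and 1.18, 1.21, 1.37 and 1.93 CPM in treated nerves (log2 fold change −0.09, SE 0.45, adjusted p = 0.928, exact permutation p = 0.800), and the sign of this value turned without KO 4502 (0.67). Axonal *Nrg1* transcripts are made in cell bodies outside the nerve. The receptor gene *Hcar2* was at 2.79, 8.30, 1.54 and 0.770 CPM in untreated and 2.25, 1.99, 2.70 and 3.65 CPM in treated nerves (log2 fold change −0.33, SE 0.52, adjusted p = 0.753, exact permutation p = 0.829), with a sign that also turned without KO 4502 (0.61). With 4 against 4 libraries the smallest exact p is 0.0286. These p-values do not show that the levels were equal.

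Of 20 genes of the niacin receptor and prostaglandin system, *Ptger3* rose. It encodes the prostaglandin E2 receptor EP3 and was at 15.5, 10, 3.59 and 7.50 CPM in untreated and 15.7, 32.5, 32.9 and 27.2 CPM in treated nerves, with WT control at 29.0 to 41.4 CPM. Niacin 4505 was only just above KO 4501, and the log2 fold change was 1.57 (SE 0.35, adjusted p = 0.0458), or 1.29 without 4503, which was not called. *Ptges3* and *Ptges*, the most abundant members, had log2 fold changes of −0.15 and 0.46 (adjusted p = 0.485 and 0.192). Of 27 genes of NAD synthesis and use, *Nmnat2* was the 1 that fell, none rose, and the list median was −0.09, or −0.00 without KO 4502. *Nadk*, an abundant member that makes NADP, had a log2 fold change of 0.17 (adjusted p = 0.473). The 12 tested markers of neurons and axons, none of which passed, had a median of −0.34, or 0.20 without KO 4502.

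The myelin genes had a median log2 fold change of −0.43 over 20 tested members, 18 of them negative, but only *Mobp* fell. Over all tested genes 45.9% were positive. *Mobp*, a myelin basic protein known from oligodendrocytes, was at 14.8, 27.7, 23.2 and 7.17 CPM in untreated and 7.74, 7.11, 5.76 and 6.05 CPM in treated nerves, so KO 4504 overlapped the treated group (log2 fold change −1.45, SE 0.31, adjusted p = 0.0425). *Pmp22* and *Mbp*, the most abundant, were at 30150 to 34859 and 28443 to 31025 CPM in untreated and at 24134 to 33778 and 21370 to 33559 CPM in treated nerves (adjusted p = 0.672 and 0.723). The summed level of the 10 markers of myelinating Schwann cells was 90724 to 125024 CPM in untreated and 64607 to 104978 CPM in treated nerves, which overlap, and none of the 10 passed. In whole nerve, fewer cells of a type and less RNA per cell cannot be told apart.

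No gene passed among 20 Schwann cell transcription factors, 22 genes of the node and internode, 19 enzymes of myelin sphingolipids, 20 genes of the basal lamina and its receptors, 31 phosphoinositide genes around MTMR2 and 29 genes of the PI3K, Akt and mTOR core, where 1.43% of all tested genes did. Their medians lay between −0.29 and 0.01, and between −0.40 and −0.07 without KO 4502. *Sox10*, the defining factor of Schwann cells, was at 278 to 729 CPM in untreated and 247 to 353 CPM in treated nerves (log2 fold change −0.77, SE 0.23, adjusted p = 0.103, DESeq2 with 8 and 12 libraries 0.149 and 0.0371), and *Zeb2* had a log2 fold change of 0.29 (adjusted p = 0.351). *Sbf2*, a partner of MTMR2, was at −0.12 on the log2 scale (adjusted p = 0.711). The value for *Mtmr2* itself was −0.41 on the log2 scale (SE 0.20, adjusted p = 0.261, exact permutation p = 0.143), which became −0.12 without the library labelled KO 4503. *Fa2h*, which makes the hydroxylated fatty acids of myelin lipids, was at 1018, 407, 1158 and 719 CPM in untreated and 395, 493, 288 and 209 CPM in treated nerves, with KO 4502 among the treated values (adjusted p = 0.0614 with edgeR and 0.0221 with DESeq2 on 8 libraries).

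Genes of fat storage mostly had positive log2 fold changes, but few passed the test. *Lep*, the adipocyte hormone leptin, was at 16.3, 12.7, 9.17 and 13.6 CPM in untreated and 30.1, 66.2, 55.9 and 32.4 CPM in treated nerves (log2 fold change 1.84, SE 0.29, adjusted p = 0.0383). Its groups did not overlap, and WT control, at 39.6 to 77.7 CPM, overlapped the treated group only. *Agpat2*, an acyltransferase of triglyceride synthesis, was at 53.0, 49.9, 39.5 and 37.1 CPM in untreated and 66.4, 101, 107 and 194 CPM in treated nerves (log2 fold change 1.38, SE 0.27, adjusted p = 0.0401). *Pnpla3*, a lipase of lipid droplets, was at 11.4, 16.2, 3.20 and 6.06 CPM in untreated and 13.8, 54.6, 49.6 and 48.3 CPM in treated nerves (log2 fold change 2.18, SE 0.50, adjusted p = 0.0475), with niacin 4505 within the untreated range. Without 4503 the log2 fold changes of *Lep*, *Agpat2* and *Pnpla3* were 1.70, 1.33 and 1.89, none of them called.

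Other genes of this group, named in the study, did not pass with edgeR, but some did with DESeq2. DESeq2 called a larger share of all tested genes, 2.5% with 8 libraries and 6.01% with 12, than edgeR (1.43%). *Pparg*, the master factor of adipocytes, was at 15.8, 35.0, 11.5 and 8.18 CPM in untreated and 33.9, 42.2, 67.0 and 51.9 CPM in treated nerves (log2 fold change 1.47, SE 0.35, adjusted p = 0.0555). *Lpl*, the lipase that takes up fatty acids from blood, was at 354, 518, 270 and 146 CPM in untreated and 471, 792, 778 and 839 CPM in treated nerves (log2 fold change 1.16, SE 0.30, adjusted p = 0.0742). In both, KO 4502 was above niacin 4505. With DESeq2 on the 8 libraries compared, *Pparg*, *Lpl*, *Dgat2* and *Scd1* passed (adjusted p = 0.00902, 0.0206, 0.0232 and 0.0233), and with DESeq2 on 12 libraries and with limma-voom *Pparg*, *Lpl* and *Dgat2* did. *Dgat2*, *Scd1*, *P2rx1* and *Nnat* had log2 fold changes of 1.50, 1.45, 1.98 and 1.09 (adjusted p = 0.0866, 0.0980, 0.181 and 0.155), *Srebf1* of 0.18 (adjusted p = 0.611) and *S100a9*, a neutrophil alarmin, of −1.71 (adjusted p = 0.365). No gene passed among 20 of fatty acid synthesis, 29 of cholesterol synthesis and uptake and 24 of fatty acid oxidation, with medians of 0.35, 0.38 and 0.08 (0.29, 0.23 and 0.11 without 4503). Of the triglyceride genes 15 of 20 and of the lipid droplet genes 15 of 20 were positive, where 45.9% of all tested genes were. *Hmgcs1*, an abundant gene of early cholesterol synthesis, was at 0.73 on the log2 scale (adjusted p = 0.209).

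White adipocyte markers moved in the same direction as these genes, but the lists are not separate, since *Lep*, *Pparg* and *Dgat2* are among the markers. Of 20 tested, 19 were positive, *Lep* passed, and the median was 0.70, or 1.12 without KO 4502, against −0.04 for all genes and 7924 positive of the 17257. Their summed level was 3851, 8203, 3626 and 1459 CPM in untreated and 4266, 6714, 7556 and 8643 CPM in treated nerves, with 5248 to 6992 CPM in WT control. The groups overlap through KO 4502, which had an untreated level of *Lep* (12.7 CPM) together with a treated level of the summed markers. The part of fat cell content in the levels of the fat storage genes was not tested. Brown adipocyte genes were low in all libraries, summing to 59.2 to 95.4 CPM for 11 genes, and none passed.

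**Figure D4:**
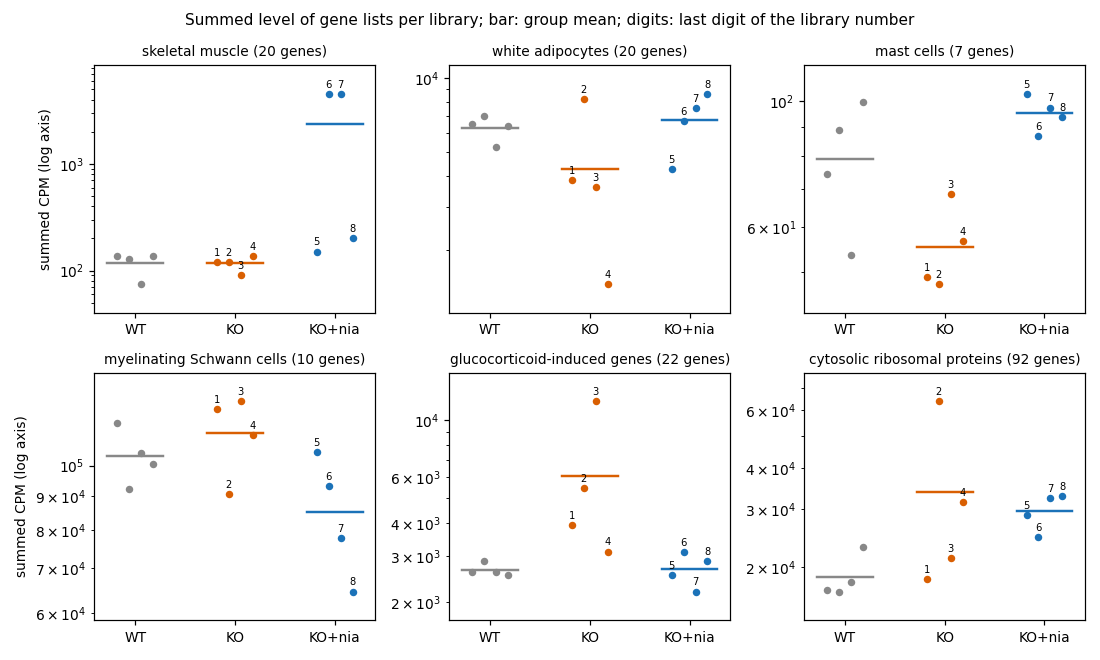
Summed CPM of 6 gene lists per library, on log axes, in WT control (grey), untreated *Mtmr2* KO (orange) and niacin-treated *Mtmr2* KO nerve (blue), with bars at the group means and the last digit of the library number beside each point. Muscle genes are high in 2 treated libraries (4506 and 4507), mast cell genes are higher in all 4 treated than in all 4 untreated libraries, glucocorticoid-induced genes are highest in the untreated library 4503, and the adipocyte, Schwann cell and ribosomal protein sums overlap between the groups.

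Skeletal muscle genes had the largest fold changes among genes that rose, and these followed the levels in niacin 4506 and 4507. Of 17 tested markers 11 rose and none fell, where 0.695% of all tested genes rose. Their median log2 fold change was 5.13, or 0.88 without these 2 libraries. *Ckm*, the muscle creatine kinase, was at 2.93, 0.314, 0.224 and 3.13 CPM in untreated and 4.36, 253, 272 and 6.09 CPM in treated nerves (log2 fold change 6.36, SE 1.33, adjusted p = 0.0425). *Tnnt3* (13.1, 677, 795 and 25.5 CPM in treated nerves), *Acta1* (9.45, 475, 401 and 20.5), *Myl1* (4.46, 198, 209 and 8.49) and *Trdn* (0.686, 39.3, 44.6 and 1.97), all parts of the contractile or calcium release apparatus, had the same pattern. Their untreated levels reached at most 11.5, 7.52, 4.22 and 0.625 CPM. *Myh2*, the heavy chain of fast oxidative fibres, and *Tcap*, a protein of the Z disc, rose by 4.86 and 5.22 on the log2 scale (adjusted p = 0.0401 for both). *Myh4*, the heavy chain of the fastest fibres, named after its values were seen, reached 976 and 663 CPM in 4506 and 4507, was at 18.3 CPM or less in the other 10 libraries, and did not pass with edgeR (adjusted p = 0.0524) but did with DESeq2 on 8 libraries (adjusted p = 0.00670).

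Other genes were high in the same libraries. In 31 of the 120 genes that rose, niacin 4506 and 4507 were each more than 3-fold above both 4505 and 4508, as in 91 of all 17257 tested genes. *Eno3*, the 1 of 23 glycolytic genes that rose, *Cox6a2*, the 1 of 81 nuclear oxidative phosphorylation genes, and *Rpl3l*, the 1 of 90 cytosolic ribosomal protein genes, are the muscle forms of their proteins. *Eno3* was at 163 and 205 CPM in 4506 and 4507 and at 8.12 to 14.4 CPM in the other 6 libraries. Without these libraries the log2 fold changes of *Eno3*, *Cox6a2* and *Rpl3l* were 0.26, 1.38 and 1.76, from 3.30, 5.40 and 4.14.

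Some of the genes with the smallest p showed a weaker form of this pattern. *Tmem182*, a membrane protein of muscle and fat, was at 2.82, 2.02, 1.86 and 2.02 CPM in untreated and 3.23, 12.1, 14.3 and 9.09 CPM in treated nerves, with niacin 4508 high as well (log2 fold change 2.15, SE 0.35, adjusted p = 0.0383, and 1.47 without 4506 and 4507). *Pgm2*, a phosphoglucomutase, was at 43.8 to 52.3 CPM in untreated and 66.1, 94.9, 88.6 and 71.2 CPM in treated nerves (log2 fold change 0.75, SE 0.13, adjusted p = 0.0387). *Dapk2*, a kinase of cell death and autophagy, was at 1.15 to 1.88 CPM in untreated and 2.79 to 5.39 CPM in treated nerves (log2 fold change 1.49, SE 0.26, adjusted p = 0.0387). The groups did not overlap in any of these genes.

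Mast cell protease genes rose together. *Mcpt4* and *Cma1*, chymases 115 kb apart on chromosome 14, *Tpsb2*, a tryptase, and *Cpa3*, a carboxypeptidase, are stored in mast cell granules. *Mcpt4* was at 6.27, 5.69, 4.49 and 14.2 CPM in untreated and 30.6, 23.3, 26.4 and 21.3 CPM in treated nerves (log2 fold change 1.74, SE 0.33, adjusted p = 0.0401). *Tpsb2* was at 7.70, 8.38, 6.67 and 13.8 CPM in untreated and 24.4, 22.4, 23.1 and 26.4 CPM in treated nerves (log2 fold change 1.40, SE 0.23, adjusted p = 0.0383). *Cpa3* and *Cma1* rose by 1.49 (SE 0.29) and 1.65 (SE 0.36) on the log2 scale (adjusted p = 0.0401 and 0.0457), from 3.49 to 7.76 and 2.15 to 9.62 CPM to 13.3 to 17.8 and 14.2 to 21.5 CPM. None of the 4 genes overlapped between the groups, and WT control spanned much of the range between them (12.7 to 28.1 CPM for *Mcpt4* and 6.24 to 16.7 CPM for *Cpa3*).

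The other mast cell genes did not follow. *Kit*, the growth factor receptor of mast cells that other cells of the nerve also carry, was at 19.9, 15.8, 47.3 and 10.2 CPM in untreated and 9.36, 11.1, 6.40 and 5.06 CPM in treated nerves (log2 fold change −1.55, adjusted p = 0.0774 with edgeR and 0.0182 with DESeq2 on 8 libraries). *Hdc*, which makes histamine, was at 1.20 to 5.09 CPM in untreated and 2.56 to 3.38 CPM in treated nerves (adjusted p = 0.780), and *Fcer1a*, the IgE receptor subunit, was at 0.481 CPM or less in all libraries and under the filter. So 4 of 6 tested markers rose, where 0.695% of all tested genes did, with a list median of 1.45. The summed level of the 7 genes was 47.5 to 68.5 CPM in untreated, 86.9 to 103 CPM in treated and 53.5 to 99.6 CPM in WT control nerves. Without 4503 the log2 fold changes of *Mcpt4*, *Tpsb2*, *Cpa3* and *Cma1* were 1.55, 1.28, 1.31 and 1.37, none of them called, and without 4506 and 4507 they were 1.76, 1.47, 1.58 and 1.70.

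Among the genes that rose, *Postn*, *Ccdc80* and *Colec12* were of the more abundant. *Postn*, the matricellular protein periostin, was at 239, 205, 71.3 and 218 CPM in untreated and 582, 288, 533 and 491 CPM in treated nerves, with 350 to 424 CPM in WT control (log2 fold change 1.37, SE 0.31, adjusted p = 0.0470). The library labelled KO 4503 was far below the other untreated ones, and the log2 fold change without it was 1.10. *Ccdc80*, a secreted protein of fibroblasts and fat, was at 98.1, 124, 60.4 and 106 CPM in untreated and 189, 199, 217 and 162 CPM in treated nerves (log2 fold change 0.99, SE 0.19, adjusted p = 0.0401). *Colec12*, a scavenger receptor, rose by 0.62 (adjusted p = 0.0457). Among genes with small p, *Pi15*, a secreted protease inhibitor, and *Glt8d2*, a glycosyltransferase, rose by 1.42 and 0.95 on the log2 scale (adjusted p = 0.0387 and 0.0383). *Tlcd2*, a membrane protein that affects phospholipid composition, rose by 0.79 (adjusted p = 0.0383).

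*Lox*, the enzyme that cross-links collagen and elastin, fell. It was at 1038, 895, 2346 and 617 CPM in untreated and 452, 562, 340 and 284 CPM in treated nerves, below the 691 to 904 CPM of WT control (log2 fold change −1.58, SE 0.35, adjusted p = 0.0457, and −1.05 without 4503). Of 43 collagen genes, *Col6a6* rose and *Col17a1* fell, by 1.52 and 1.46 on the log2 scale (adjusted p = 0.0422 and 0.0459), and the list median was −0.14, or −0.26 without KO 4502 and −0.07 without 4503. Of 19 elastic fibre genes *Lox* alone passed, and of the marker lists of epineurial fibroblasts, endoneurial fibroblasts, perineurial cells and endothelial cells none held a gene that passed, with medians of 0.72, −0.43, −0.16 and −0.33, or 0.70, −0.07, 0.02 and −0.52 without KO 4502.

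Other abundant genes fell. *Ddn*, the actin-associated protein dendrin, was at 1314, 843, 1127 and 1010 CPM in untreated and 441, 654, 496 and 628 CPM in treated nerves (log2 fold change −0.95, SE 0.18, adjusted p = 0.0401), and *Mapk8ip1*, the JNK scaffold JIP1, was at 864, 600, 1049 and 597 CPM in untreated and 483, 467, 353 and 332 CPM in treated nerves (log2 fold change −0.93, SE 0.20, adjusted p = 0.0457). Neither overlapped between the groups. *Arhgef10*, an exchange factor in which variants slow nerve conduction, was at 664, 414, 718 and 494 CPM in untreated and 329, 373, 251 and 255 CPM in treated nerves (log2 fold change −0.92, SE 0.21, adjusted p = 0.0458), and was the 1 of 21 genes of the list of actin and myosin regulators that passed.

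Among genes at lower levels, *Scrg1*, *Kcnip2*, *Dnah9* and *Rab37* fell. *Scrg1*, a small secreted protein, was at 4.01, 10.8, 12.1 and 1.15 CPM in untreated and 0.294, 0.824, 0.411 and 0.343 CPM in treated nerves (log2 fold change −3.89, SE 0.65, adjusted p = 0.0383). *Kcnip2*, a potassium channel subunit, was at 8.57, 4.53, 32.3 and 1.68 CPM in untreated and 0.882 to 1.05 CPM in treated nerves (log2 fold change −3.66, SE 0.69, adjusted p = 0.0401, and −2.40 without 4503). *Dnah9*, an axonemal dynein, was at 2.65 to 14.3 CPM in untreated and 0.954 to 1.62 CPM in treated nerves (log2 fold change −2.91, SE 0.49, adjusted p = 0.0383). *Rab37*, a GTPase of secretory granules, was at 2.50 to 15.4 CPM in untreated and 0.914 to 1.67 CPM in treated nerves (log2 fold change −2.84, SE 0.48, adjusted p = 0.0383). In these genes KO 4504 was the untreated library nearest to the treated ones, and the groups did not overlap. Of 56 Rab genes, *Rab37* fell and *Rab27b*, also of secretory granules, rose by 1.41 on the log2 scale (adjusted p = 0.0474).

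Of 23 imprinted growth genes tested, *Grb10* and *Plagl1* rose and *Peg10* fell, where 1.43% of all tested genes passed in either direction. The list median was 0.35, or 0.22 without niacin 4506 and 4507. *Grb10*, an inhibitor of insulin and IGF receptor signalling, was at 72.9, 72, 65.8 and 71.6 CPM in untreated and 105, 98.6, 108 and 98.2 CPM in treated nerves (log2 fold change 0.54, SE 0.10, adjusted p = 0.0401). *Plagl1*, a transcription factor of the imprinted network, was at 21.8 to 27.1 CPM in untreated and 32.9 to 35.3 CPM in treated nerves (log2 fold change 0.48, SE 0.11, adjusted p = 0.0491). *Peg10*, a retrotransposon-derived gene, fell by 0.92 on the log2 scale (adjusted p = 0.0467). The groups did not overlap in any of the 3, where 7.01% of all tested genes did not. The summed level of the list was 1078 to 1264 CPM in untreated, 1456 to 1577 CPM in treated and 1388 to 1514 CPM in WT control nerves. Sums of some other lists, such as FoxO genes and mast cells, did not overlap between untreated and treated nerves either. Of 31 cell cycle genes, *Mcm6*, a subunit of the replicative helicase, rose by 1.17 on the log2 scale (adjusted p = 0.0459). Of the 31, 27 were positive, where 45.9% of all tested genes were. The list median was 0.52, or 0.49 without KO 4502, 0.47 without 4503 and 0.32 without both.

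**Figure D5:**
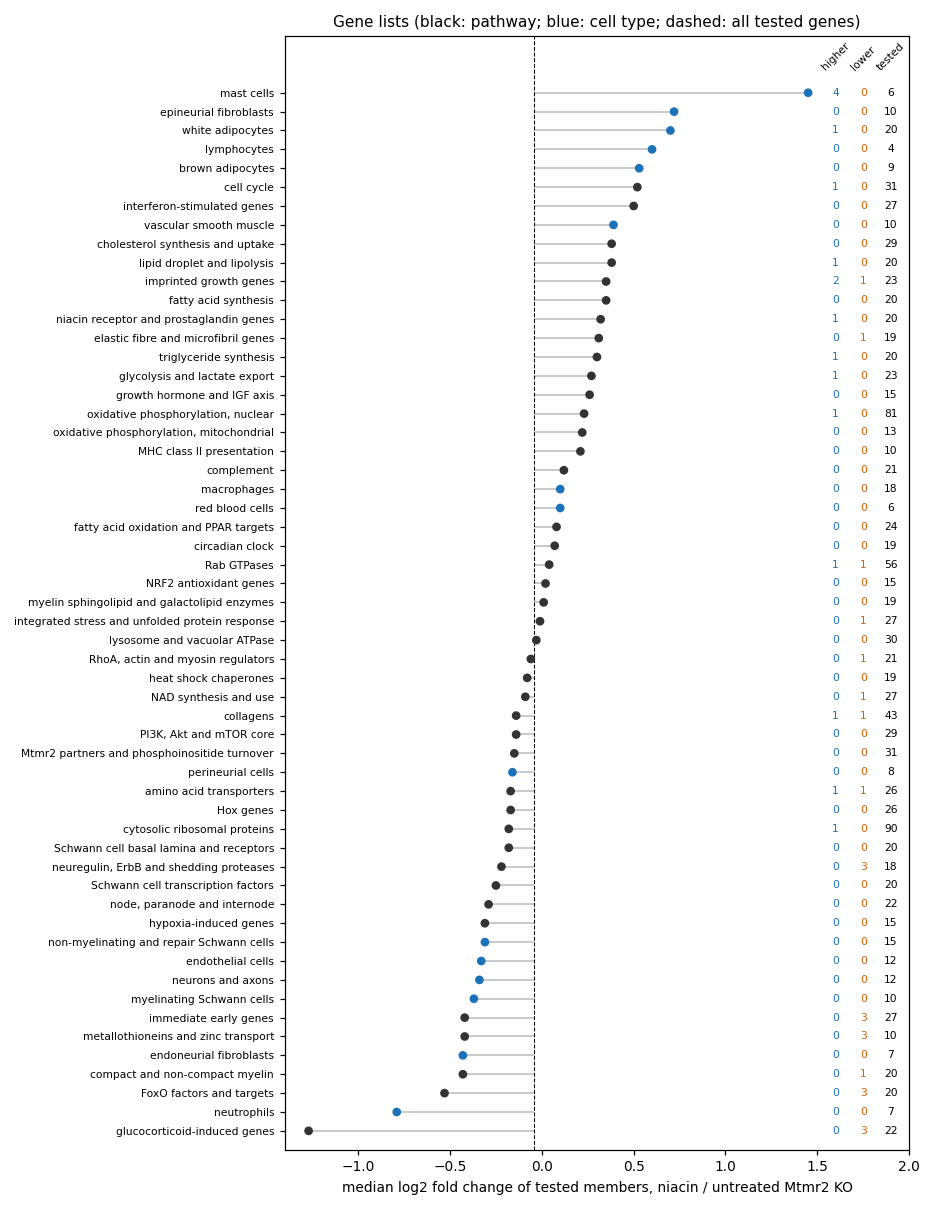
Median log2 fold change of the tested members of each gene list, niacin-treated against untreated *Mtmr2* KO nerve, with pathways in black and cell types in blue, a dashed line at the median of all tested genes, and on the right the numbers of members called higher, called lower and tested. Skeletal muscle is left out because its median of 5.13 lies far off the scale. Mast cell genes are at the upper end (1.45) and glucocorticoid-induced genes at the lower end (−1.27).

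In all, 24 of the 57 gene lists held at least 1 gene that passed the test, where 1.43% of all tested genes did. Longer lists hold such a gene more often by chance alone, and some genes, such as *Mt1* and *Mt2*, are in more than 1 list. The muscle forms *Eno3*, *Cox6a2* and *Rpl3l* were the only called genes of their lists. Among the lists with no called gene, interferon-stimulated genes had a median of 0.50 with 23 of 27 positive (45.9% of all tested genes were), growth hormone and IGF genes 0.26, mitochondrial oxidative phosphorylation genes 0.22 with 13 of 13 positive, complement 0.12 and MHC class II 0.21. Without the library labelled KO 4503 these medians were 0.37, 0.28, 0.05, 0.01 and 0.03, and without KO 4502 they were 0.55, 0.25, 0.85, 0.34 and 0.20. Lysosomal and Hox genes had medians of −0.03 and −0.17. Marker lists of neutrophils, macrophages, lymphocytes, red blood cells, vascular smooth muscle and non-myelinating or repair Schwann cells had medians of −0.79, 0.10, 0.60, 0.10, 0.39 and −0.31, or −0.44, 0.36, 0.72, 0.49, 0.42 and −0.47 without KO 4502. The median of the 90 cytosolic ribosomal protein genes was −0.18, or 0.32 without KO 4502. The vascular smooth muscle median was −0.15 without niacin 4506 and 4507.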

How the data were processed

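Sciatic nerve RNA was poly(A) selected and sequenced on a HiSeq, and reads were aligned with STAR to GRCm38. The deposited table holds whole-number counts per gene from the authors for 43432 genes in 12 libraries. CASAVA 1.9 and DESeq2 are listed in the submitters' processing notes, but no source used here names the counting program, annotation release or strand setting, and overlapping genes may share reads. The deposited tables of comparisons, with fold changes and p-values, were used for gene symbols only. Groups came from the labels, and each library is a separate mouse.

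Counts were tested with edgeR 4.0.16 (R 4.3.3, quasi-likelihood, TMM scaling, filterByExpr over the 3 groups, 12 libraries in 1 fit), with Benjamini-Hochberg adjustment and a threshold of 0.05, and SE was the log2 fold change divided by the square root of F. On simulated data for this comparison (17257 genes), edgeR recovered 74% of 100 genes with a log2 fold change of 1 and 99% with one of 2. Among unchanged genes edgeR made 5 false calls, limma-voom 5 and DESeq2 35. The simulation gave all groups the same spread, held no library that stood apart and changed only genes above a minimum mean level. These shares therefore do not carry over to the real libraries or to genes at low levels. Single genes of the niacin route had exact permutation tests over 70 divisions. The 21 planned and 2 later alternatives included DESeq2 1.42.0 and limma 3.58.1. Genes named were *Mtmr2*, the niacin route, genes the study names, in each direction the 12 genes with the smallest p, the 5 with the largest fold change and the 5 most abundant, all among called genes whose groups do not overlap, and called members of each list (at most 4) or, with fewer than 2, its 2 most abundant genes, while lists described by counts have no member named and some members are not reported here. Genes outside the rule are marked or were chosen after their values were seen. The comparison and the lists were chosen with earlier results of these data known.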

Additional observations from a re-analysis of the deposited data

Results flagged for a closer look

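In 202 groups of 4 libraries, a check was made for a single library far from the others. High values shared by a pair of libraries escape it, as for *Ckm* at 4.36, 253, 272 and 6.09 CPM in treated nerves. Nor does it show that among the 126 genes that fell, the library labelled KO 4503 was the highest untreated one in 98. In this check 6 values stood apart, 2.97%. The chance rate of about 1 in 20 is no baseline here, because many genes named were chosen by their results. The share therefore does not show that the libraries were alike. The library labelled KO 4503 was the lowest untreated value, far from the others, in *Trdn* (0.16 CPM), *Postn* (71.3 CPM) and *Nadk* (176 CPM). Niacin 4505 was the lowest treated value in *Pnpla3* (13.8 CPM) and *Lpl* (471 CPM). Niacin 4506 was the highest treated value in *Bok* (38.5 CPM).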

How the results depend on the processing

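The numbers of genes called moved with the setting. DESeq2 called 489 higher and 559 lower with 12 libraries and 245 and 199 with 8, and limma-voom with quality weights 808 and 1199. Without a filter on low counts 312 and 261 were called, and with the *Xist* level as a covariate 26 and 24. edgeR on 8 libraries called 0 (smallest adjusted p 0.174, 2249 genes at an unadjusted p under 0.05). Leaving out 1 library gave 0 to 1745 higher and 0 to 2435 lower genes, the highest without KO 4502. Counts of 0 came without WT control 4497, 4499 or 4500 (3076 to 3245 genes at an unadjusted p under 0.05), niacin 4506 (3377) or niacin 4507 (2458). In settings chosen after seeing the data, leaving out KO 4502 and 4503 gave 815 and 1408, and leaving out niacin 4506 and 4507 gave 0 (2192). Size factors, thinning and a minimum of 10 counts kept both counts within 1.5 times.

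Of 1730 fits of the 76 called genes named here, 884 lost the call. Among genes not called, *Hcar2* turned to 0.63 with limma-voom, 0.61 without KO 4502 and 0.53 without KO 4502 and 4503. *Nrg1* turned to 0.45 with limma-voom, 0.14 with *Xist*, 0.67 without KO 4502, 0.54 without KO 4502 and 4503 and 0.03 without niacin 4506 and 4507. *Srebf1* turned to −0.03 and −0.00 without these pairs. *Hdc* turned to 0.16 with limma-voom and 0.07 without KO 4501. With 1 library left out, *Hcar2*, *Nrg1* and *Hdc* ranged from −0.65 to 0.61, −0.34 to 0.67 and −0.48 to 0.07. The cause of these shifts was not tested. No paired analysis was possible because the groups share no replicate numbers. The spread among the untreated libraries and levels under about 1 CPM limit the precision.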

Other observations

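*Pglyrp1* and *Clec4d*, and also *Saa2*, *Saa3*, *Crp* and *Serpina3m*, which were chosen after their values were seen, fell in treated nerves (edgeR adjusted p = 0.0383 to 0.0460). *Pglyrp1*, a peptidoglycan-binding protein of granulocytes, was at 10.4, 11.7, 13.7 and 7.02 CPM in untreated and 2.25, 3.60, 3.70 and 5.23 CPM in treated nerves, without overlap, a log2 fold change of −1.53 (SE 0.26). *Saa3*, a serum amyloid A, was at 1.29, 38.8, 11.8 and 0.0481 CPM in untreated and at 0 to 0.429 CPM in treated nerves, so KO 4504 overlapped the treated group (log2 fold change −6.23, SE 1.38). *Saa2*, its neighbour at 36.1 kb, was at 0.481 to 1.83 CPM in untreated and 0.183 to 0.386 CPM in treated nerves (log2 fold change −2.22). *Crp*, the C-reactive protein, *Serpina3m*, a protease inhibitor, and *Clec4d*, a lectin of myeloid cells, had log2 fold changes of −2.48, −3.38 and −3.10, with untreated levels of at most 3.97, 8.43 and 2.60 CPM, and *Crp* and *Serpina3m* overlapped between the groups through KO 4504. KO 4502 and the library labelled KO 4503 were the highest in all of these genes, and without 4503 the log2 fold changes of *Pglyrp1*, *Clec4d*, *Saa2*, *Saa3*, *Crp* and *Serpina3m* were −1.39, −2.58, −2.01, −6.27, −1.86 and −3.11, with none called. The summed neutrophil markers, of which none of 7 tested passed, were 28.3, 23.6, 9.84 and 6.45 CPM in untreated and 5.53, 5.33, 5.85 and 20.8 CPM in treated nerves, and their part in these levels was not tested.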
